A study of Mus musculus with 16 samples.

Results

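This account covers 10 genes that carry glucose into the cell and through glycolysis to lactate, measured in mouse muscle stem cells (MuSCs). They are the glucose transporter gene Slc2a1, the enzyme genes Hk2, Gpi1, Pfkp, Aldoa, Tpi1, Pgk1, Eno1 and Pkm of the glycolytic chain, and Ldha at its end. The members were taken by gene symbol as steps of the pathway, and all 10 were found among the 24411 genes of the count table. MuSCs are the Pax7-expressing cells that lie along muscle fibers and rebuild muscle after damage. The MuSCs were purified by cell sorting, and their RNA was sequenced in 16 libraries, 4 in each of 4 groups. The control groups are labelled wild type. The other groups are labelled TRF2 knockout. TRF2 is a protein of the telomere-protecting shelterin complex and is encoded by Terf2. In the knockout mice a floxed Terf2 allele is recombined in Pax7-expressing cells by a tamoxifen-inducible Cre (Pax7CreERT2). Each genotype was sampled uninjured and 3 days after 10 µl of notexin, a myotoxin from snake venom that kills muscle fibers, was injected into the tibialis anterior muscle (3 days post injury, 3 DPI). The mice were young adults on a C57BL/6 background. Whether the control mice of these libraries carried the Cre or received tamoxifen is not given in the sources used here. The sort kept cells negative for CD45, CD31, CD11b and Sca1 and positive for α7-integrin with VCAM or CD34, which depends on surface proteins whose genes are themselves MuSC markers.

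Glycolysis converts glucose to pyruvate in the cytosol and yields ATP without oxygen, and its intermediates feed the synthesis of nucleotides, lipids and amino acids. Glucose enters through transporters, is trapped by hexokinases, is committed at the phosphofructokinase step, is split into trioses by aldolase and passes through the lower enzymes to pyruvate, which lactate dehydrogenase reduces to lactate. In quiescent MuSCs glycolysis is held low, and MuSCs that leave quiescence raise it.

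Terf2, the targeted gene, was at 71.5, 94.5, 66.3 and 73.1 CPM (counts scaled to a common library total, with TMM factors) in the 4 uninjured control libraries and at 49.7, 46.7, 58.7 and 27.2 CPM in the uninjured libraries labelled TRF2 knockout, which do not overlap the controls. Its log2 fold change there was −0.62 (SE 0.27, edgeR adjusted p = 0.199). At 3 DPI it was at 35.5, 48.6, 48.2 and 42.8 CPM in controls and at 52.6, 21.9, 66.9 and 89.7 CPM in the libraries labelled TRF2 knockout, a log2 fold change of 0.44 (SE 0.42, edgeR adjusted p = 0.755), so that the targeted gene was not lower in the group mean there and the 3 DPI libraries are named by their labels only. Total estimated counts were 909474 to 1351130 in uninjured controls, 665776 to 976984 in uninjured knockouts, 620506 to 1304090 in 3 DPI controls and 687418 to 862825 in 3 DPI knockouts. Replicate 3 of the 3 DPI libraries labelled TRF2 knockout stood apart, with a count in 15387 genes where every other library had one in at least 19996. In bulk samples, fewer cells of a type and less RNA per cell cannot be told apart. The series calls the replicates biological but names no animals, so the p-values measure the spread between these samples, which may in part be technical.

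The promoter windows of the members are shown because 8 of them rose after injury in control MuSCs, and because factors of the hypoxia and MYC pathways are known to act on glycolysis genes through short DNA motifs. RefSeq windows on GRCm38.p6, from 250 bases before to 50 bases after a gene's start, were found for all 10 members, 16 windows in all. They were searched on both strands for ACGTG and GCGTG, the core letters of hypoxia response elements, and for CACGTG, the E box, every match of which also holds ACGTG. Capitals mark matches on either strand. Ldha is shown for its 3 ACGTG sites, 2 of which are E boxes and match on both strands, and its 2 GCGTG sites (chr7:46845554-46845853, plus strand). Pgk1 is shown for its 2 ACGTG matches, 150 and 131 bases before the start (chrX:106186850-106187149, plus strand). Slc2a1, the only member called higher in uninjured knockouts, has 1 GCGTG and 1 ACGTG match, 61 and 36 bases before the start (chr4:119108495-119108794, plus strand). Tpi1, which had the largest fold change of the members after injury in both genotypes, has no match (chr6:124814109-124814408, minus strand).
Ldha: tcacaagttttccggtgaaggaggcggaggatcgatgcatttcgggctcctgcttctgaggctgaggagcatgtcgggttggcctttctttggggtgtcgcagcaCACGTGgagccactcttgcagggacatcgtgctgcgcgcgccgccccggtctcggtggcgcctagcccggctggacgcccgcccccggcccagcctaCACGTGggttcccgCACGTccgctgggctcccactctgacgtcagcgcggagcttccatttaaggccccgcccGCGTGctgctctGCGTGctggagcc
Pgk1: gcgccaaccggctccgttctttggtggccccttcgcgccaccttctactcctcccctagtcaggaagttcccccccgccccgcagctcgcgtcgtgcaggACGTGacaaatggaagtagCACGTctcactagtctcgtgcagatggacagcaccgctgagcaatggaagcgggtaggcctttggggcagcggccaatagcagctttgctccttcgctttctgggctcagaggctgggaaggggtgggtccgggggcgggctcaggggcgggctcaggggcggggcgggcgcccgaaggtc
Slc2a1: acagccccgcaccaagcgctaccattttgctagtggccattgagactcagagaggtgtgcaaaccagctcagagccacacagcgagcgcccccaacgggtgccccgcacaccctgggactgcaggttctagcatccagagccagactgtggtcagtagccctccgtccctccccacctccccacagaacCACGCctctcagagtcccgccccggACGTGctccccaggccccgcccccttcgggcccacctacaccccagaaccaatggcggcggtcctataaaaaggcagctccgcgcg
Tpi1: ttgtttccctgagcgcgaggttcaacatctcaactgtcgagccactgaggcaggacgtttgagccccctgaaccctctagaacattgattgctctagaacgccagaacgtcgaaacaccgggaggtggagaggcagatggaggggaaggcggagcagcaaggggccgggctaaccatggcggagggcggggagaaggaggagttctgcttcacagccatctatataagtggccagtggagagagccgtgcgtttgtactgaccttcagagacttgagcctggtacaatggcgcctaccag
At least 1 window held ACGTG in 6 of 10 members, GCGTG in 4 of 10 and CACGTG in 1 of 10, and 8 of 10 members held any of them, the exceptions being Gpi1 and Tpi1. The share of all windows holding any of these motifs is not given here, so whether 8 of 10 is unusual was not tested. Per window, ACGTG was in 7 of 16 of the members' windows against 19.6% of all 32851 promoter windows, and GCGTG in 7 of 16 against 32.4%. The windows are not separate, since 2 of Aldoa and 2 of Eno1 overlap and hold the same matches. CACGTG was in 7.15% of all windows. The members' windows are 52.7% to 69.0% G and C, against a median of 52.7% over all windows. A match is a description of the letters only, and no match says only that they are not in that window.

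The members lie at chr4:119108711-119137983 (Slc2a1, plus strand), chr6:82725025-82774454 (Hk2, minus), chr7:34201330-34230336 (Gpi1, minus), chr13:6579768-6648777 (Pfkp, minus), chr7:126795234-126800751 (Aldoa, minus), chr6:124810586-124814296 (Tpi1, minus), chrX:106187100-106203699 (Pgk1, plus), chr4:150236721-150248879 (Eno1, plus), chr9:59656368-59679375 (Pkm, plus) and chr7:46841475-46855627 (Ldha, plus) in GENCODE M21 on GRCm38. A second GENCODE gene carries the symbol Aldoa (chr7:126800790-126809108, minus), and which of the 2 the Aldoa row of the table counts is not given in the sources used here. Glycolysis genes have many processed pseudogenes, so the transcripts of each member were compared with those of all other annotated genes in windows of 50 bases. Of the windows of Eno1, 72.2% occur exactly in another gene, chiefly in Eno1b, a near-identical gene that shares 70.5% and has its own row in the table. Of the windows of Pgk1, 68.0% occur in another gene, chiefly in the processed pseudogenes Pgk1-rs7 (67.9%) and Gm5537 (67.7%), neither of which is in the table. The shared part was 34.3% for Pkm, with Gm6560 the main copy, 19.1% for Gpi1, 16.4% for Ldha, 13.1% for Aldoa and 7.51% for Tpi1, and it was 0% for Slc2a1, Hk2 and Pfkp. Eno1 and Pgk1 are the members with the largest shared part, and their levels are uncertain, since reads could be assigned to or taken from a copy. Eno1 had a fractional estimated count in 16 of 16 libraries, Aldoa in 12 and Ldha in 8, against 1 of 16 for each of Gpi1, Tpi1, Pgk1 and Pkm. The members with no shared window had one as well, Slc2a1 and Hk2 in 6 libraries each and Pfkp in 3, so a fractional count does not track the shared part.

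In uninjured MuSCs, the first question is whether the glycolytic genes differed at rest between controls and libraries labelled TRF2 knockout. Slc2a1 was higher in the knockout, whereas Aldoa, Pkm and Ldha, encoding an aldolase, a pyruvate kinase and a lactate dehydrogenase subunit, were lower by 1.72 to 2.31-fold. The other 6 members were not called. Here a gene is called when edgeR's quasi-likelihood test gave an adjusted p below 0.02 (Benjamini-Hochberg over all genes tested) with a fold change over 1.5.

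Slc2a1, which encodes GLUT1, the basal glucose transporter, was at 37.5, 18.9, 27.9 and 36.1 CPM in uninjured controls (mean 30.1 ± 8.58, SD, n = 4) and at 127, 73.8, 74.4 and 49.0 CPM in uninjured knockouts (81.0 ± 32.7). Every knockout library lay above every control library, and knockout replicate 1 was the highest. The log2 fold change was 1.56 (SE 0.30, edgeR adjusted p = 0.000716), or 2.95-fold. Without that knockout replicate it was 1.23, with an edgeR adjusted p of 0.0221, which ends the call.

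Aldoa, which encodes the aldolase that splits fructose 1,6-bisphosphate, was at 447, 295, 308 and 355 CPM in uninjured controls (351 ± 68.6) and at 86.4, 165, 170.3 and 136 CPM in uninjured knockouts (139.5 ± 38.5). The groups did not overlap, and the log2 fold change was −1.21 (SE 0.21, edgeR adjusted p = 0.000158). This call held when any 1 of the 8 libraries was left out. Pkm, which encodes the muscle-type pyruvate kinases of the last step to pyruvate, was at 568, 489, 363 and 553 CPM in controls (493 ± 93.5) and at 161, 308, 288 and 298 CPM in knockouts (264 ± 68.9). Here too every knockout library was below every control library, with knockout replicate 1 the lowest, and the log2 fold change was −0.78 (SE 0.20, edgeR adjusted p = 0.0142). Ldha, which encodes the subunit of lactate dehydrogenase that favors lactate formation, was at 129.6, 117, 119.8 and 136 CPM in controls (125 ± 8.59) and at 50.9, 42.6, 78.7 and 72.2 CPM in knockouts (61.1 ± 17.1). The groups did not overlap and the log2 fold change was −0.92 (SE 0.24, edgeR adjusted p = 0.0123). The spread of Ldha over the 4 uninjured controls, a coefficient of variation of 6.84%, was the smallest of any member in any group.

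The 6 remaining members overlapped between the uninjured genotypes. Hk2, which encodes the inducible hexokinase that traps glucose as glucose 6-phosphate, averaged 40.8 CPM in controls and 50.4 CPM in knockouts. Its log2 fold change was 0.44, with a 95% interval from −0.17 to 1.04 (edgeR adjusted p = 0.447). Gpi1, the isomerase that makes fructose 6-phosphate, went from 157 to 90.7 CPM, a log2 fold change of −0.66 (interval −1.11 to −0.21, edgeR adjusted p = 0.0892). Pfkp, the platelet-type phosphofructokinase subunit, averaged 70.3 and 56.2 CPM, with a log2 fold change of −0.19 (interval −0.72 to 0.34, edgeR adjusted p = 0.732). Among the enzymes that handle trioses, Tpi1, the isomerase that interconverts them, gave a log2 fold change of −0.71 (interval −1.39 to −0.024, edgeR adjusted p = 0.254). Pgk1, the first ATP-yielding kinase of the pathway, gave −0.18 (interval −0.76 to 0.41, edgeR adjusted p = 0.781). Eno1, the enolase that makes phosphoenolpyruvate, gave −0.50 (interval −0.98 to −0.022, edgeR adjusted p = 0.248).

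Counted together, 1 of the 10 members was called higher and 3 lower in uninjured knockouts, against 0.584% and 2.63% of the 14048 genes tested (3.22% called in either direction, 82 genes higher and 370 lower, or 176 and 212 when scaled by library size alone). The same 4 members were those whose libraries did not overlap, against 3.43% of genes higher and 9.18% lower without overlap. The median log2 fold change of the members was −0.58, against 0.058 over all genes. The summed level of the 10 members was 1487 ± 265 CPM in controls and 889 ± 98.2 CPM in knockouts (SD, n = 4), with no overlap between 1143 to 1750 CPM and 782 to 980.4 CPM. MuSC marker genes moved with this comparison: 8 of 10 were lower in the knockout, and their summed level was 2872 to 4834 CPM in controls and 1713 to 2412 CPM in knockouts. Of the fibroadipogenic markers, Dcn was called higher and Col3a1 lower among 4 tested. Of these 4, 3 had estimates above 0 and 1 below (median log2 fold change 0.87). Their summed level nevertheless went the other way, being 4142 to 6715 CPM in controls and 928 to 1905 CPM in knockouts. Their part in the result was not tested. The limma robust fit on log2 CPM, the fit of the study's own methods, called 0 of the 10 members, against 2.13% of all genes. Its adjusted p-values were 0.0248 for Slc2a1, 0.0265 for Aldoa and 0.0392 for Pkm at the same threshold. Pkm lost its call without any 1 of control replicates 1, 2 or 4 or knockout replicates 1, 3 or 4 (edgeR adjusted p up to 0.0744), and Ldha without control replicates 1, 2 or 4 or knockout replicates 1 or 2 (up to 0.0591).

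**Figure D1:**
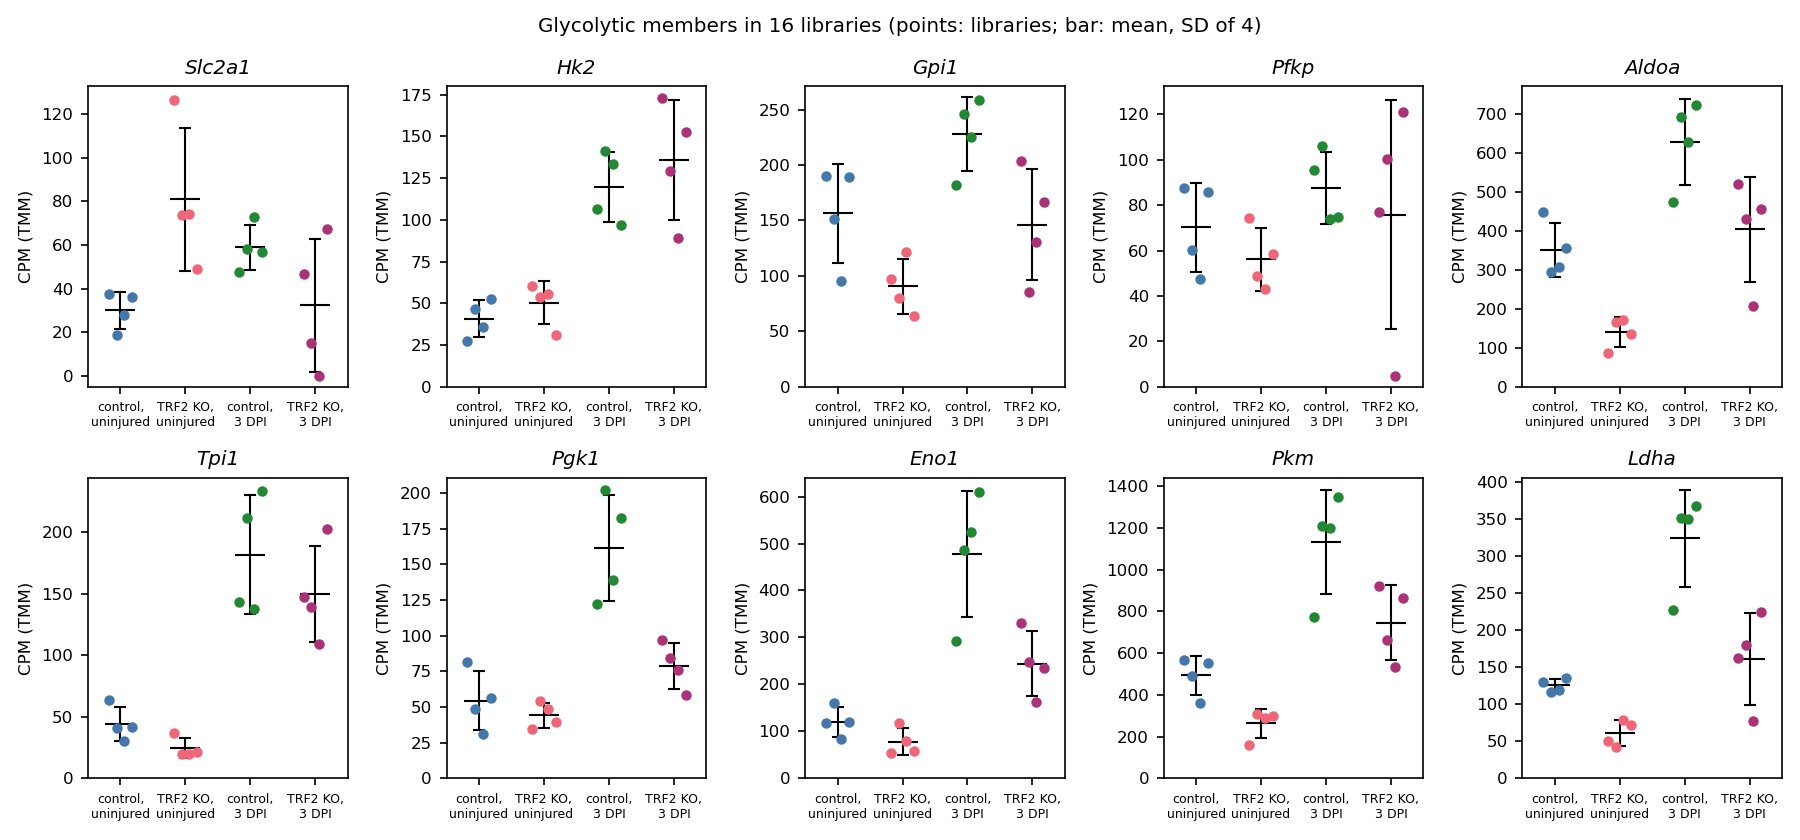
Level of each of the 10 members in CPM (vertical axes, linear) in the 4 groups. Points are libraries and bars give the mean and SD of 4. Slc2a1 is the member in which the uninjured knockouts, at 49.0 to 127 CPM, lie above the uninjured controls, whereas Aldoa, Pkm and Ldha lie below them.

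The second question is how the same genes responded to injury in control MuSCs. By 3 DPI, 8 of the 10 members had risen, by 1.84-fold for Aldoa to 4.23-fold for Tpi1, with the triose isomerase gene Tpi1 and the enolase gene Eno1 the most changed. Slc2a1 and Hk2, at glucose entry, had risen 2.02-fold and 3.01-fold, and Ldha, at the end, 2.66-fold. Gpi1 and Pfkp, the isomerase and phosphofructokinase steps, were not called.

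Tpi1 was at 63.4, 40.5, 30.2 and 41.9 CPM in uninjured controls (44.0 ± 13.9) and at 144, 212, 138 and 234 CPM at 3 DPI (182 ± 48.3). Every injured library was above every uninjured one, and the log2 fold change was 2.08 (SE 0.23, edgeR adjusted p = 1.14e-09). Eno1 went from 118, 161, 83.7 and 119.9 CPM (121 ± 31.7) to 292, 486, 524 and 609.8 CPM (478 ± 134). These groups did not overlap either, and the log2 fold change was 2.03 (SE 0.22, edgeR adjusted p = 3.40e-10). Pgk1 was at 81.3, 48.6, 31.4 and 56.5 CPM before injury (54.5 ± 20.7) and at 122, 202, 139 and 183 CPM at 3 DPI (161 ± 37.4). Its log2 fold change was 1.61 (SE 0.24, edgeR adjusted p = 4.63e-07), and all 4 injured libraries were above the uninjured ones.

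Hk2 was at 27.7, 46.8, 36.0 and 52.6 CPM in uninjured controls (40.8 ± 11.1) and at 107, 141, 134 and 97.1 CPM at 3 DPI (119.6 ± 21.1). The groups did not overlap and the log2 fold change was 1.59 (SE 0.24, edgeR adjusted p = 8.42e-07). Slc2a1 reached 47.9, 58.3, 72.8 and 56.8 CPM at 3 DPI (58.9 ± 10.3), all above the uninjured controls given before, with a log2 fold change of 1.02 (SE 0.29, edgeR adjusted p = 0.00641). That call was lost without uninjured control replicate 2 (0.80, adjusted p = 0.0525) or without 3 DPI control replicate 3 (0.89, adjusted p = 0.0490). Aldoa reached 474, 690.5, 626 and 722 CPM (628 ± 110.1), a log2 fold change of 0.88 (SE 0.19, edgeR adjusted p = 0.000353). Pkm, the member with the highest CPM, reached 774, 1209.8, 1198 and 1349 CPM (1133 ± 249), a log2 fold change of 1.24 (SE 0.20, edgeR adjusted p = 1.98e-06). Ldha reached 227, 351, 350.1 and 367 CPM (324 ± 65.0), a log2 fold change of 1.41 (SE 0.20, edgeR adjusted p = 1.40e-07). Replicate 1 was the lowest 3 DPI control library for Aldoa, Pgk1, Eno1, Pkm, Ldha, Slc2a1 and Gpi1, and even so it was above every uninjured control in each of these genes other than Gpi1.

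Gpi1 was at 190.3, 151, 95.3 and 189 CPM in uninjured controls (157 ± 44.6) and at 182, 246, 225 and 258 CPM at 3 DPI (228 ± 33.4). The groups overlapped, and the log2 fold change was 0.59 (SE 0.20, edgeR adjusted p = 0.0259). Pfkp was at 47.7 to 87.6 CPM before injury and at 73.8 to 106 CPM at 3 DPI, with a log2 fold change of 0.35 (95% interval −0.11 to 0.81, edgeR adjusted p = 0.323).

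In this comparison 10.8% of the 15356 genes tested were called higher and 9.46% lower (20.2% in all, 1652 and 1452 genes, or 1989 and 1066 when scaled by library size alone), and 12.0% were higher without overlap, against 8 of 10 members on both counts. The median log2 fold change of the members was 1.33, against 0.066 over all genes, and their summed level went from 1487 ± 265 to 3399.8 ± 652 CPM. Genes of other cell types and of the cell cycle moved with it. All 8 myeloid markers rose, with a median log2 fold change of 5.07, although the sort is set to remove CD45 and CD11b positive cells, and their summed level went from 69.2 to 144 CPM in uninjured controls to 4458 to 5697 CPM at 3 DPI. No myeloid marker was at 0 in every library of a group. All 10 cycling genes rose, with a median log2 fold change of 1.99, and 9 of 10 MuSC markers were lower. Of 7 myofiber markers tested, 2 were called higher and 0 lower, with 5 estimates above 0 and 2 below (median 0.69). The 1 neutrophil marker tested was called higher (log2 fold change 2.22). Of the 5 fibroadipogenic markers 4 were higher and Col3a1 was lower, their summed level being 4142 to 6715 CPM before injury and 2592 to 3975 CPM at 3 DPI. Their part in the result was not tested.

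**Figure D2:**
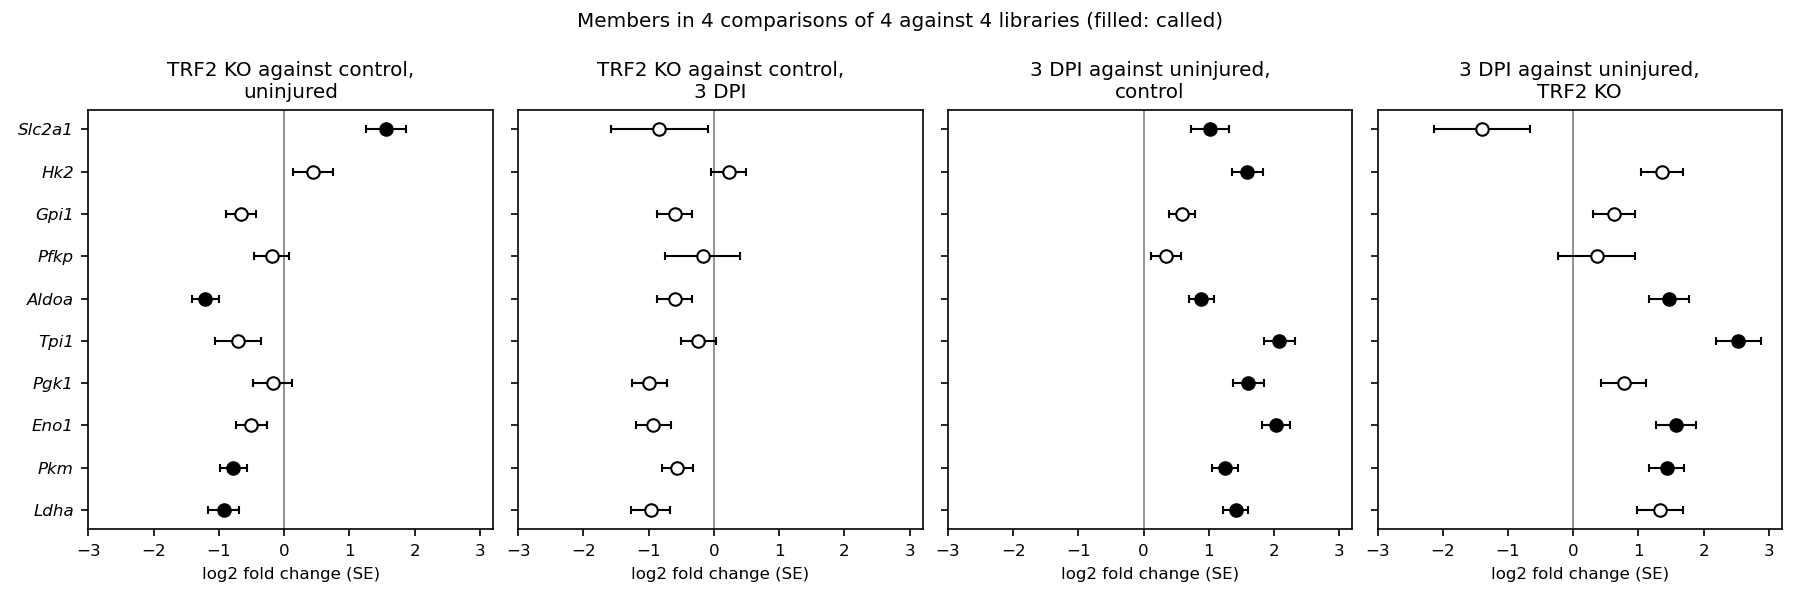
Log2 fold change of each member (horizontal axes) in 4 comparisons of 4 against 4 libraries. Bars give the SE, and filled points mark called members. The panel of injury in control MuSCs has 8 filled points to the right of 0, and the 3 DPI genotype panel has none.

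The third question is whether MuSCs labelled TRF2 knockout responded in the same way. In these, Tpi1, Eno1, Aldoa and Pkm rose after injury, 5.77-fold, 2.98-fold, 2.76-fold and 2.70-fold. The other 6 members were not called, and Slc2a1 was the only member with a negative estimate. This comparison shares its uninjured libraries with the genotype comparison at rest, so the values of each stand side by side and no likeness between them is read.

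Tpi1 was at 36.7, 19.7, 20.0 and 21.8 CPM in uninjured knockouts (24.6 ± 8.13) and at 147, 139.5, 109 and 203 CPM at 3 DPI (149.6 ± 39.0). The groups were far from overlapping, and the log2 fold change of 2.53 (SE 0.34, edgeR adjusted p = 0.000347) kept its call in every alternative tried. Eno1 was at 54.4, 118, 80.2 and 58.6 CPM (77.9 ± 29.3) and then at 331, 247, 162 and 235 CPM (244 ± 68.9), a log2 fold change of 1.58 (SE 0.31, edgeR adjusted p = 0.00661). Aldoa reached 519, 431, 208 and 455 CPM (403 ± 135), a log2 fold change of 1.46 (SE 0.31, edgeR adjusted p = 0.00999). Pkm reached 923, 662, 533 and 863 CPM (745 ± 180.2), a log2 fold change of 1.43 (SE 0.27, edgeR adjusted p = 0.00407). In all 4 genes every 3 DPI library was above every uninjured knockout, with replicate 3 the lowest at 3 DPI.

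Hk2 was at 60.4, 54.0, 55.8 and 31.3 CPM in uninjured knockouts (50.4 ± 12.98) and at 173, 129, 89.3 and 153 CPM at 3 DPI (136 ± 35.9), again without overlap. Its log2 fold change of 1.36 (SE 0.32) had an edgeR adjusted p of 0.0208, just past the threshold. Pgk1 was at 34.3, 54.0, 48.7 and 39.5 CPM (44.1 ± 8.87) and then at 97.0, 84.2, 75.6 and 58.2 CPM (78.8 ± 16.2), also without overlap, with a log2 fold change of 0.77 (SE 0.34, edgeR adjusted p = 0.266). Ldha reached 162, 179.9, 76.9 and 225 CPM (161 ± 61.9), where replicate 3 lay within the uninjured knockouts, and its log2 fold change was 1.33 (SE 0.35, edgeR adjusted p = 0.0371). Gpi1 was at 203, 85.3, 130.2 and 167 CPM (146 ± 50.5) against 97.1, 80.0, 122 and 64.0 CPM before injury (90.7 ± 24.7), an overlap, with a log2 fold change of 0.62 (SE 0.32, edgeR adjusted p = 0.376).

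Slc2a1 and Pfkp were the members with the widest spread in the 3 DPI libraries labelled TRF2 knockout. Slc2a1 was at 46.7, 14.99, 0 and 67.6 CPM (coefficient of variation 94.4%), where the count of 0 in replicate 3 allows up to 3.57 CPM, the level of 3 counts (a limit for counting error only). Pfkp was at 77.1, 100.3, 4.96 and 121 CPM (66.7%). Replicate 3 was the lowest library for both. The log2 fold change after injury was −1.40 for Slc2a1 (95% interval −2.85 to 0.052, edgeR adjusted p = 0.394) and 0.36 for Pfkp (−0.80 to 1.52, edgeR adjusted p = 0.852).

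In knockout MuSCs 2.43% of the 14578 genes tested were called higher after injury and 1.61% lower (4.04% in all), and 6.90% were higher and 6.70% lower without overlap, against 4 of 10 members called higher and 6 of 10 higher without overlap. The members' median log2 fold change was 1.34, against 0.0071 over all genes, and their summed level went from 889 ± 98.2 to 2172.5 ± 583 CPM. The biological coefficient of variation that edgeR estimated was 0.523, against 0.276 in the injury comparison of controls. Of the myeloid markers 7 of 8 rose, their summed level going from 118 to 192 CPM before injury to 1902 to 5175 CPM after it, and 2 of 10 cycling genes rose. Of the MuSC markers 6 of 10 were lower, and all 10 had estimates below 0 (median −1.79). The fibroadipogenic markers summed to 928 to 1905 CPM before injury and 1850 to 3969 CPM after it and the myofiber markers to 176 to 239 and 311 to 439 CPM, with none of either list called. Their part in the result was not tested. Without 3 DPI knockout replicate 3, 6 members were called, Hk2 (1.54, adjusted p = 0.000234) and Ldha (1.60, adjusted p = 8.26e-05) being added, while all genes called went from 4.04% to 8.46%, and the Slc2a1 estimate was −0.95. The call of Aldoa was lost without any 1 of the other 7 libraries and that of Pkm without 3 DPI knockout replicate 1. Eno1 lost its call without uninjured knockout replicates 1, 3 or 4 or 3 DPI knockout replicates 1 or 2, leaving between 1 and 3 members called without any 1 of the 7, when 2.28 to 2.89% of all genes were called. The limma robust fit, under which 6.997% of all genes were called, called Tpi1, Aldoa, Pkm and Hk2 but not Eno1 (adjusted p = 0.0281), and the rescaled table called Tpi1 alone.

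The fourth question is whether the genotypes differed at 3 DPI. EdgeR called 0 of the 10 members, and 0 of all 14559 genes tested (0% called), so nothing here passed the test. The estimates of 9 of 10 members were below 0. The lowest were those of Pgk1, Ldha and Eno1.

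At 3 DPI, Pgk1 was at 122 to 202 CPM in controls and at 58.2 to 97.0 CPM in the libraries labelled TRF2 knockout, without overlap. Its log2 fold change was −0.99 (95% interval −1.52 to −0.47, edgeR adjusted p = 0.452). Ldha was at 227 to 367 CPM in controls and at 76.9 to 225 CPM in knockouts, just without overlap, with a log2 fold change of −0.97 (interval −1.55 to −0.38, edgeR adjusted p = 0.452). Eno1 gave −0.93 (interval −1.46 to −0.40, edgeR adjusted p = 0.452), with knockout replicate 1, at 331 CPM, inside the control range. The estimates for Gpi1, Aldoa and Pkm were −0.60, −0.60 and −0.56, and that of Hk2 was 0.23 (interval −0.29 to 0.74, edgeR adjusted p = 0.808). For Slc2a1 the estimate was −0.83, with a wide interval from −2.30 to 0.63 (edgeR adjusted p = 0.742).

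The 2 members without overlap were lower in the knockout, as were 4.87% of all genes without overlap, with 2.97% of genes and no member higher. The median log2 fold change of the members was −0.60 against 0.0014 over all genes, and the summed level was 2465 to 3951 CPM in controls and 1390 to 2679 CPM in knockouts, which overlap. At an unadjusted p under 0.05 there were 6 of 10 members and 1362 of all genes, while DESeq2 called 5 genes higher and 17 lower, the limma robust fit 10 and 18, and limma-voom 0 in all, with none of the members among them. Without 3 DPI knockout replicate 3, edgeR called 3 genes higher and 13 lower, again with no member among them. Of the cell type markers, all 8 myeloid and all 10 MuSC markers had estimates below 0, with none called. All 10 cycling genes did too (median −0.51), with summed levels of 949.7 to 1301 CPM in controls and 646 to 953 CPM in knockouts. Their part in the result was not tested. Each library's description carries a short code whose meaning is not given in the sources used here. Within the 1 code that 2 control and 2 knockout libraries share at 3 DPI, the members' median was −0.37 and 0 members were called. Of all 15502 genes tested in that fit, 1 was called (0.00645%). In the other comparisons no code held at least 2 libraries of each group. The uninjured controls and uninjured knockouts shared no code at all, so code and genotype cannot be told apart in that comparison.

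The test of the difference between the genotype effects, on all 16 libraries, asks whether the genotypes responded differently to injury. It called 0 of the 10 members and 3 of 16822 genes (0.0178%). The largest estimate was that of Slc2a1, −2.29 on the log2 scale (95% interval −3.88 to −0.70, unadjusted p = 0.00986, edgeR adjusted p = 0.692). It was −2.01 without 3 DPI knockout replicate 3, and −1.98 to −3.50 over all alternatives (adjusted p 0.0229 to 1). For the other 9 members the estimates ran from −0.73 for Pgk1 (interval −1.55 to 0.092) to 0.69 for Aldoa (interval −0.035 to 1.42), with the interval of each reaching across 0. Slc2a1 was the only member with an unadjusted p under 0.05, as were 966 of all genes, while DESeq2 called 9 genes higher and 15 lower, the limma robust fit 45 and 78 and limma-voom 0 and 3, again with no member among them.

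Levels can be set beside each other between genes only per transcript length, which the second deposited table allows (CPM after scaling by length). In uninjured controls the order was Aldoa (541), Pkm (459), Ldha (175), Eno1 (157), Gpi1 (121), Pgk1 (68.1), Tpi1 (63.5), Pfkp (38.7), Slc2a1 (26.3) and Hk2 (16.4). The ranges over the 4 libraries separated Pkm from Ldha and, narrowly, Tpi1 from Pfkp, and every other pair of neighbours in that order overlapped. In uninjured knockouts Pkm (306) and Aldoa (267) led without being separated from each other, and Slc2a1 (91.1) stood between Ldha (102) and Gpi1 (89.6), with every pair of neighbours overlapping. At 3 DPI the order in controls was Pkm (1074), Aldoa (982), Eno1 (627), Ldha (467), Tpi1 (268), Pgk1 (207), Gpi1 (182), Slc2a1 (53.0), Pfkp (50.4) and Hk2 (49.6). Here Aldoa was separated from Eno1, Ldha from Tpi1, and Gpi1 from Slc2a1, and the other neighbours overlapped. The order in the 3 DPI knockouts began with the same 5 genes, at 810 for Pkm, 716 for Aldoa, 367 for Eno1, 265 for Ldha and 252 for Tpi1, and ended with Slc2a1 (32.0). Only Tpi1 from Gpi1 and Pgk1 from Hk2 were separated there. The transporter and the commitment enzymes Hk2 and Pfkp were thus the lowest members per length in controls before and after injury, with Eno1 and Pgk1 subject to the read sharing given above.

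**Figure D3:**
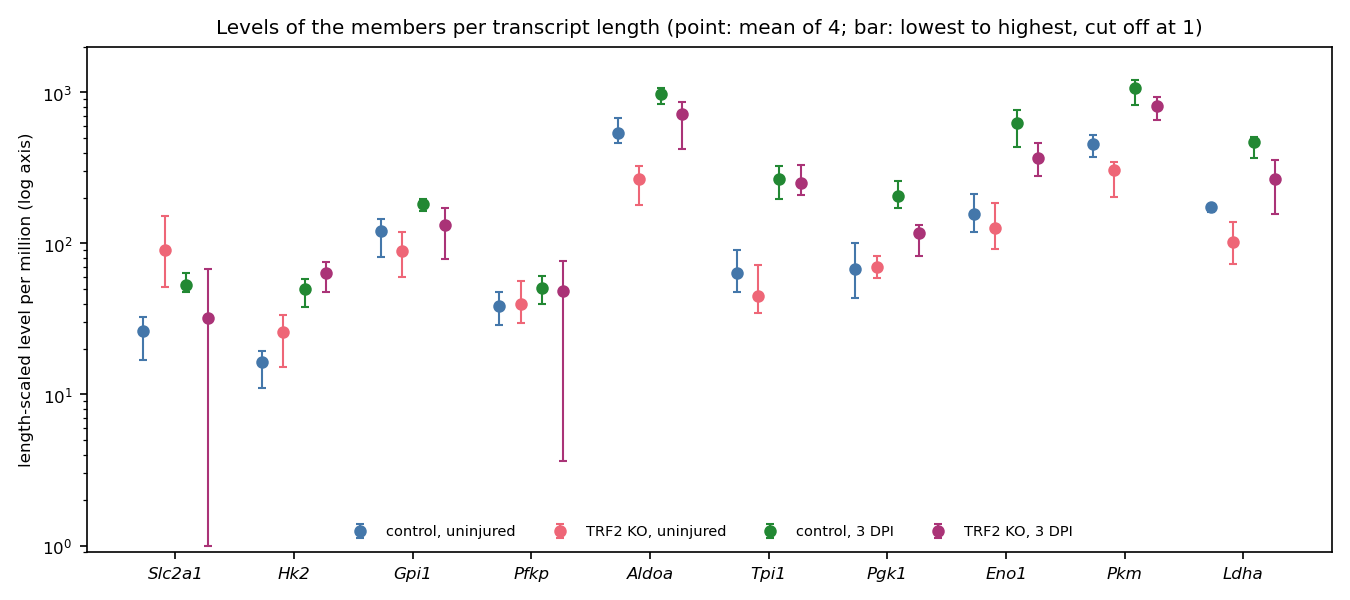
Level of each member per transcript length (length-scaled CPM, log axis) in the 4 groups, with points for the mean of 4 libraries and bars from the lowest to the highest library, the bars being cut off at 1. Pkm and Aldoa are highest in all 4 groups, and the lowest bar reaching the axis is that of Slc2a1 in 3 DPI knockouts.

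At the hexokinase step, Hk2 was set against Hk1. Hk1, the constitutive hexokinase, was at 485, 442, 286 and 457 CPM in uninjured controls and at 159.8, 204, 167 and 212 CPM in uninjured knockouts. The groups did not overlap, and Hk1 was lower in the knockout by 1.04 on the log2 scale (edgeR adjusted p = 0.000502). In control MuSCs it fell by 1.21 after injury, the only gene called lower there among the 10 members and the 26 other glycolysis genes tested. Hk2 made up 9.11 ± 2.56% of the counts of Hk1 and Hk2 in uninjured controls, 21.6 ± 6.42% in uninjured knockouts, 40.8 ± 2.95% in 3 DPI controls and 53.4 ± 5.24% in 3 DPI knockouts (SD, n = 4). The ranges of the 4 groups, 5.40 to 11.2%, 12.8 to 27.5%, 37.6 to 44.6% and 47.0 to 59.0%, did not overlap. The differences were 12.5 and 12.6 percentage points between genotypes and 31.7 and 31.8 points after injury. Each had a two-sided exact permutation p of 0.0286, the smallest that 4 against 4 libraries allow, and 0.0686 after adjustment over the 12 shares tested. No share of 4 against 4 libraries can reach the threshold of 0.02 in this test. Hk3, which is not in this share, averaged 16.9 CPM in uninjured controls and 129 CPM in 3 DPI controls.

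For lactate dehydrogenase, Ldhb encodes the other main subunit of the enzyme. Ldha made up 82.1% of the counts of Ldha and Ldhb in uninjured controls, 71.9% in uninjured knockouts, 90.2% in 3 DPI controls and 83.8% in 3 DPI knockouts. Only the change after injury in controls reached an exact permutation p of 0.0286 (adjusted 0.0686), the others being 0.229, 0.257 and 0.371. The share of Eno1b in the counts of Eno1 and Eno1b was 24.2 ± 9.78%, 18.5 ± 17.5%, 15.9 ± 1.68% and 24.8 ± 16.1% in the same order (exact permutation p from 0.229 to 0.629), and it ranged from 3.58 to 40.6% within the uninjured knockouts alone. Whether the counting split the reads of these genes differently between groups was not tested.

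**Figure D4:**
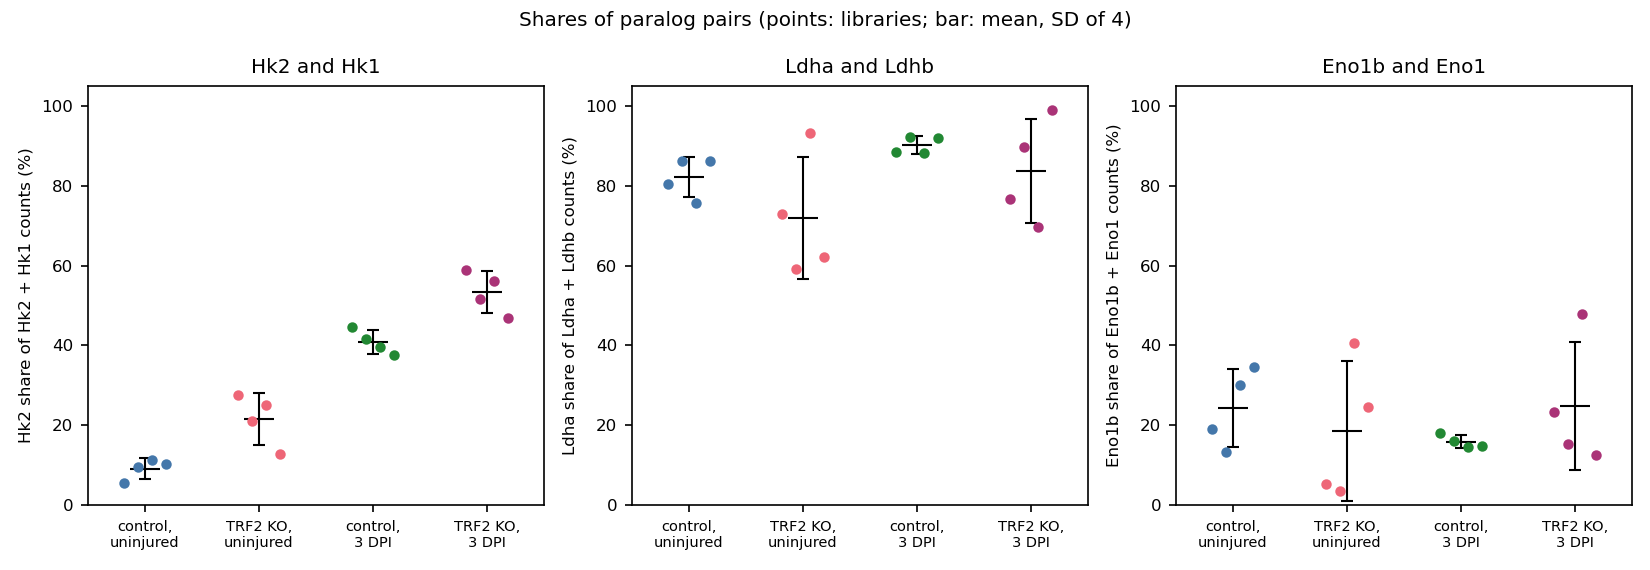
Share of the first gene in the summed counts of a pair (percent, vertical axis from 0) in the 4 groups, with points for libraries and bars for the mean and SD of 4. The Hk2 shares of the 4 groups are separate, from 5.40 to 11.2% in uninjured controls to 47.0 to 59.0% in 3 DPI knockouts.

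The neighbouring genes of the chain were counted as a list. Of 26 other glycolysis and lactate genes tested in uninjured MuSCs, 2 were lower in the knockout and none higher, against 2.63% of all genes called lower. These were Hk1 and Gapdh, the glyceraldehyde 3-phosphate dehydrogenase gene, which was lower by 0.94 on the log2 scale (261 against 125 CPM, edgeR adjusted p = 0.00453). Pgam1, the phosphoglycerate mutase gene, was at 55.8 and 28.5 CPM without overlap but was not called (−0.85, edgeR adjusted p = 0.112). After injury in controls, 5 of 26 rose and Hk1 fell, against 10.8% and 9.46% of all genes, with log2 fold changes of 2.98 for Hk3, 2.13 for Pgam1, 1.83 for the muscle enolase gene Eno3, 1.07 for the phosphofructokinase gene Pfkl and 0.87 for Gapdh. In knockouts 2 of 25 rose, against 2.43% of all genes, Pgam1 (log2 fold change 2.69) and Hk3 (2.14). Between genotypes at 3 DPI 0 of 25 was called, as was no gene of those tested. At an unadjusted edgeR p under 0.05 there were 4 of these 25, against 1362 of all 14559 genes. Hk3 is a hexokinase gene known from myeloid cells, whose markers rose in the same libraries. Whether the 2 rises are linked was not tested.

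The paralogs Slc2a3, Slc2a4, Pfkm and Aldoc were called in no comparison. Slc2a3, which encodes a high-affinity glucose transporter, averaged 56.0 CPM in uninjured controls, 41.7 CPM in uninjured knockouts, 31.6 CPM in 3 DPI controls and 63.8 CPM in 3 DPI knockouts. Slc2a4, the insulin-responsive transporter, averaged 17.1 to 36.7 CPM over the groups, the muscle phosphofructokinase gene Pfkm 26.2 to 47.8 CPM and the aldolase gene Aldoc 12.0 to 22.2 CPM. Eno3 was at 11.7, 26.5, 0 and 2.33 CPM in 3 DPI knockouts against a mean of 78.6 CPM in 3 DPI controls, a log2 fold change of −2.89 (SE 0.75) with an edgeR adjusted p of 0.452.

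Genes that act on the pathway or branch from it were counted against the same background, 3.22% of all genes called between uninjured genotypes and 10.8% called higher and 9.46% lower after injury in controls. Among 22 tested regulators, 1 was lower in uninjured knockouts, Txnip, which encodes an inhibitor of glucose uptake (fell by 0.97 on the log2 scale). After injury in controls Txnip fell by 1.98 and Mlxipl by 1.60, while Hif1a, the oxygen-responsive transcription factor subunit, rose by 0.98. Of 13 tested hypoxia response genes outside glycolysis, 1 was lower in uninjured knockouts, Ddit4 (fell by 1.54), and after injury in controls 1 of 14 rose, Hilpda (log2 fold change 1.57), and 3 fell, Ddit4, Kdm3a and Ndrg1. None of the regulators or hypoxia genes was called after injury in knockouts or between genotypes at 3 DPI.

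The pentose phosphate pathway, which leaves glycolysis at glucose 6-phosphate, had 4 of 8 genes higher after injury in controls, Tkt (log2 fold change 2.94), Pgd (2.53), G6pdx (1.97) and Taldo1 (1.57), and 2 lower, Rpia and H6pd. In knockouts 2 of 8 rose, against 2.43% of all genes, Taldo1 (log2 fold change 2.43) and Tkt (1.65). Among 17 genes of the tricarboxylic acid cycle, which oxidizes the carbon of pyruvate in mitochondria, 3 rose after injury in controls, Sdhb, Sdhd and Mdh2 (log2 fold changes 1.44, 1.15 and 0.82), and 1, Idh2, was lower in uninjured knockouts (fell by 0.98). At 3 DPI 16 of these 17 had estimates below 0 in knockouts, with a median of −0.72 and none called. At the entry of pyruvate into mitochondria, Pdhb, a pyruvate dehydrogenase subunit gene, was lower in uninjured knockouts (fell by 1.497 on the log2 scale), as 1 of 14 tested. After injury in controls 1 of 16 rose, the malic enzyme gene Me2, and 2 fell, Pdk4 and Pcx. In the list of gluconeogenesis and glycogen genes, 3 of 15 rose after injury in controls, Pygl, Gyg and Ugp2, Pygm fell, and 0 of 14 was called between the uninjured genotypes. Beside these lists, 10.8% of all genes were called higher and 9.46% lower after injury in controls. Between the uninjured genotypes 2.63% were called lower.

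**Figure D5:**
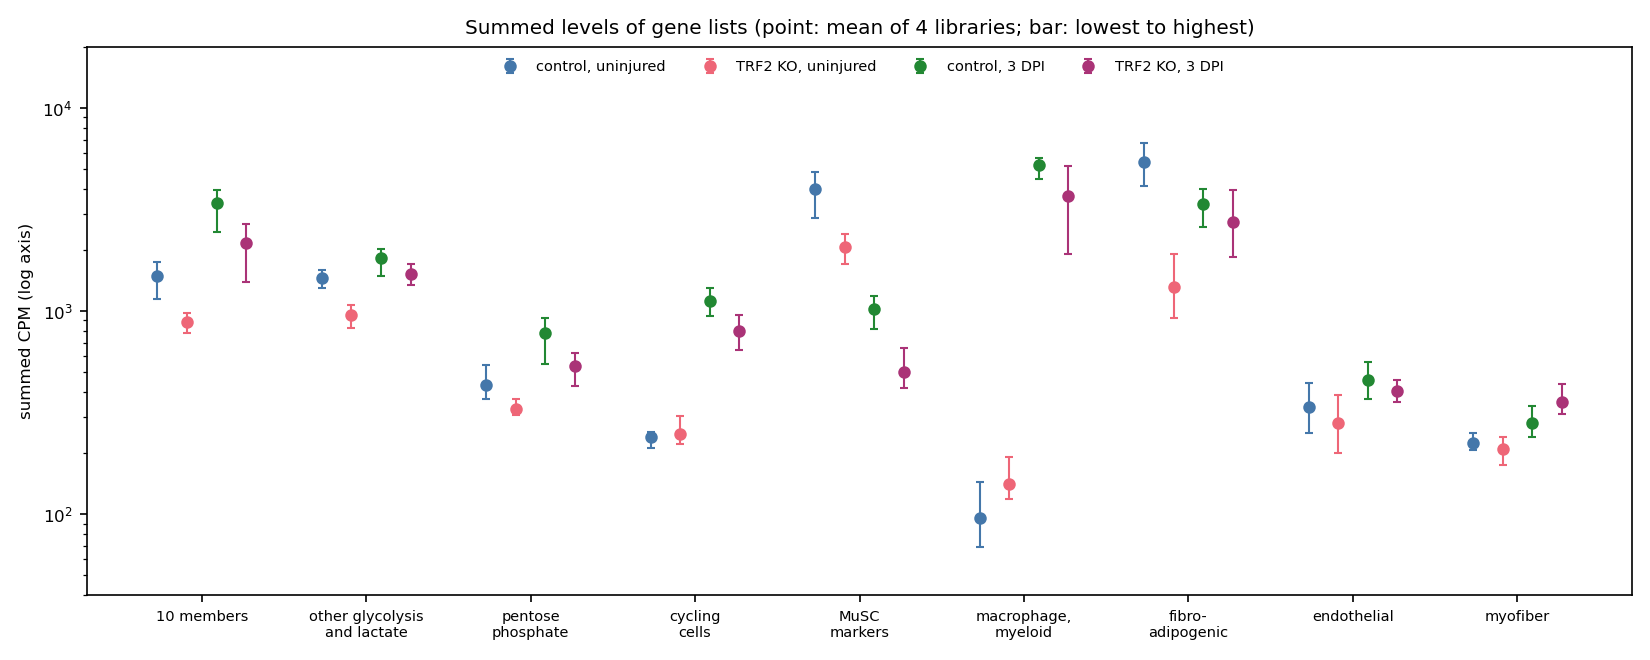
Summed level of the 10 members, of other gene lists and of cell type markers in CPM (log axis) in the 4 groups, with points for the mean of 4 libraries and bars from the lowest to the highest library. The members run from 889 CPM in uninjured knockouts to 3399.8 CPM in 3 DPI controls, and the myeloid markers from 96.2 to 5254 CPM.

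Among themselves, the members differed in how closely they varied together over the 16 libraries. The median Pearson correlation of a member's log2 CPM with the other 9 was 0.875 for Pkm, 0.874 for Eno1, 0.815 for Tpi1, 0.799 for each of Aldoa, Pgk1 and Ldha, 0.756 for Gpi1 and 0.613 for Hk2. It was 0.272 for Pfkp and 0.0063 for Slc2a1, which had a correlation of 0.735 with each other and were both lowest in 3 DPI knockout replicate 3, the library that stood apart. These are descriptions over libraries that fall into 4 groups and share library depth, and they carry no p. The genes outside the lists whose log2 CPM most resembled the mean z-score of the members were Coro1c (Pearson r = 0.948), Lgals1 (0.948), Sept9 (0.947), Glmp (0.946) and Mapkapk2 (0.946) over the same 16 libraries.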

How the data were processed

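RNA of sorted MuSCs was sequenced after ribosomal RNA depletion with the CORALL total RNA kit in 16 libraries (control or TRF2 knockout, uninjured or 3 DPI, 4 libraries a group), grouped by the sample titles. Per the labels, the authors trimmed reads with Trim Galore 0.6.7 and used STAR 2.6.1d and Salmon 1.5.2 on GRCm38. The study's methods name another version of STAR. The authors deposited Salmon's estimated counts per gene, not normalized, and a second table of estimated counts rescaled by transcript length to each library's total. Whether molecular identifiers were collapsed is not given in the sources used here.

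The estimated counts were rounded, filtered with filterByExpr, scaled by TMM and tested with edgeR 4.0.16 (robust quasi-likelihood test, R 4.3.3) on the 8 libraries of each comparison, or on all 16 for the difference between genotype effects, with Benjamini-Hochberg adjustment over all genes tested. Genes were called at an adjusted p under 0.02 and a fold change over 1.5. Intervals are at 95% by a normal approximation, with the SE taken from the estimate and the test's F statistic. With so few libraries they are somewhat too narrow. CPM used TMM factors over all 16 libraries, and log2 CPM a prior count of 2. Single shares were compared with exact two-sided permutation tests. Alternatives were DESeq2 1.42.0, limma 3.58.1 (the robust fit of the study's methods, and voom), other scalings and filters, the rescaled table, near-identical copies summed with the members, a replicate block, all 16 libraries in 1 fit, and each library left out. On simulated counts with 200 changed genes, recovery was taken over the changed genes that passed the filter again. Of 4-fold changes the test recovered 84.1% in the uninjured genotype comparison and 31.3% at 3 DPI. The shares were 73.9% for injury in controls and 28.4% for injury in knockouts. Of 2-fold changes the test recovered 21.7%, 0%, 34.8% and 0% in the same order. Of all 200 changed genes, including those that the filter removed, 94, 26, 100 and 23 were recovered.

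The members were selected by symbol alone, but they and the gene lists were chosen with earlier results of these data known. All 10 members passed the filter in every comparison. The genes named are the members, Terf2, paralogs and neighbouring steps, and any list gene called in a comparison. Positions are from GENCODE M21 and promoters from RefSeq, both on GRCm38. Shared sequence was counted in exact windows of 50 bases, with genes sharing at least 10 windows listed, and a count was taken as fractional when more than 0.001 from a whole number.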

Additional observations from a re-analysis of the deposited data

Results flagged for a closer look

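In 3 of 40 groups of 4 libraries, 1 library lay far from the other 3 for a member, by the gap to its nearest neighbour over the group's range. Chance flags about 1 in 20 such groups. Tpi1 was at 36.7 CPM in uninjured knockout replicate 1, where the nearest other library was at 21.8 CPM. Pkm was at 161 CPM in the same library, where the nearest was at 288 CPM. Ldha was at 227 CPM in 3 DPI control replicate 1, where the nearest was at 350.1 CPM.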

How the results depend on the processing

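Of 1262 values recomputed under an alternative, 1139 were the same, 76 were weaker, 16 newly passed and 31 changed sign. For a member's estimate, the same means that direction and side of the threshold were kept. A count of members called was the same within 1.5 times, and a median when it moved by less than the spread within groups. A share was the same when its direction held with no larger p. Weaker means a call lost, a larger p for a share, or a count of members called lower by over 1.5 times. The sign changes concern 8 results of 5 members, none called, with a lowest adjusted p of 0.784. The cause was not tested where a value moved.

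In uninjured MuSCs 4 members were called between genotypes by edgeR and also by DESeq2 and limma-voom, whereas 0 were called by the limma robust fit and in the rescaled table, 1 (Aldoa) with all 16 libraries in 1 fit, 2 with library size alone, and 1 to 5 with 1 library left out. Of all genes 3.22% were called there by edgeR, 4.43% by DESeq2, 3.28% by limma-voom and 2.13% by the limma robust fit. The share was 0.101% in the rescaled table and 0.487% with all 16 libraries in 1 fit. It was 2.76% with library size alone and 1.73 to 3.76% with 1 library left out. The adjusted p of Slc2a1 was 0.0671 in the rescaled table and 0.352 with all 16 libraries in 1 fit, and that of Aldoa 0.0456 in the rescaled table. Ldha lost its call when copies or related genes were summed with the members (edgeR adjusted p = 0.0317). The gene added to Ldha was Ldhal6b, which is not among the genes sharing at least 10 windows with it. Gpi1 gained a call without control replicate 3 (edgeR adjusted p = 0.0170). At 3 DPI and for the difference between genotype effects, 0 members were called in every alternative. For injury in controls 8 members were called, and 6 to 9 in the alternatives, with 9.48% (all 16 libraries in 1 fit) to 26.7% (a minimum of 10 counts) of all genes called, where Slc2a1 was lost in the limma robust fit, the rescaled table and the fit of all 16 libraries, Aldoa in the last of these, and Gpi1 was added by limma-voom, by library size alone, by a minimum of 10 counts in every library and without 3 DPI control replicate 1. For injury in knockouts 4 members were called, and 1 in the rescaled table (where 1.64% of all genes were called, against 4.04%). With 1 library left out, 1 to 6 members and 2.28 to 8.46% of all genes were called. Aldoa was lost there with copies or related genes summed (edgeR adjusted p = 0.0211), and Aldoa, Eno1 and Pkm in the rescaled table. DESeq2, library size alone, a minimum of 10 counts and the fit of all 16 libraries each called 6, adding Hk2 and Ldha, with 6.81%, 4.47%, 11.1% and 7.16% of all genes called. Tpi1 was called in every alternative in both injury comparisons.

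The replicate numbers are shared by the groups, but samples with the same number deviated together with correlations of only −0.110 to 0.111, so the numbers do not pair the libraries. With the replicate number as a block 4 members were called between uninjured genotypes, 8 for injury in controls and 1 for injury in knockouts (3.82%, 18.5% and 2.50% of all genes). Aldoa, Eno1 and Pkm were lost in the last (adjusted p 0.0670, 0.0317 and 0.0304), with block log2 fold changes of −0.031 for Pfkp in the last and −0.11 for Pfkp in the difference between genotype effects.

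Values that changed sign were Pfkp and Pgk1 between uninjured genotypes with library size alone (0.012 and 0.015), Pfkp at 3 DPI in the limma robust fit (0.053), and Pfkp for injury in knockouts with limma-voom (−0.22). For the difference between genotype effects, Ldha was −0.015 with DESeq2, −0.017 with median-of-ratios factors and −0.13 with library size alone. It was −0.095 with no filter, −0.037 with a minimum of 10 counts and −0.0053 with copies or related genes summed. There Pfkp was −0.49 with limma-voom and −0.0998 with library size alone, and Gpi1 −0.039 with library size alone. With 1 library left out, the values ran from −0.38 to 0.055 for Pgk1 between uninjured genotypes and from −0.50 to 0.21 for Pfkp at 3 DPI. For the difference between genotype effects they ran from −0.41 to 0.042 for Hk2, −0.11 to 0.34 for Gpi1, −0.19 to 0.39 for Pfkp and −0.17 to 0.15 for Ldha. The Hk2 share differed between genotypes by 10.5 to 15.4 points uninjured and 10.8 to 14.8 points at 3 DPI, with exact permutation p-values of 0.0286 to 0.0571, the latter without any 1 control library. With 3 against 4 libraries these are the only 2 values that separate groups can give, so no conclusion is drawn from the change in p. At depths of 620506 to 1351130 counts, low members rest on few counts, such as 14 to 31 for Tpi1 in uninjured knockouts and 0 to 58 for Slc2a1 in 3 DPI knockouts. Library size alone shifts the median of all genes to 0.244 and 0.229 (log2) in the uninjured genotype comparison and in injury of controls, against which the members' changes there are to be read.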
